A study of Mus musculus with 12 samples.

Results

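The aryl hydrocarbon receptor (AhR) target genes described here were *Cyp1a1*, *Cyp1a2*, *Cyp1b1*, *Nqo1*, *Aldh3a1*, *Ugdh*, *Tiparp* and *Htatip2*, 8 genes of the 24532 in the deposited mouse liver RNA-seq table. They were chosen as genes known as AhR targets, with earlier results of these data known, and matched by symbol. Of the 8, 7 had enough reads to enter the tests, which covered 14038 genes; *Aldh3a1* did not. The 12 livers came from male C57BL/6 mice aged 10 to 12 weeks at the start, with 3 livers in each of 4 groups. WT mice carried floxed *Ahr* alleles (*Ahr* fl/fl) without Cre. Hepatocyte-specific knockouts (*Ahr* HKO) carried the same alleles with Cre driven by the albumin promoter, a design aimed at hepatocytes. Whether other liver cells kept the gene was not checked here. Each genotype received a Lieber-DeCarli liquid diet for 5 weeks, either the control diet or one with 5% ethanol by volume (36% of calories).

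AhR is a ligand-activated transcription factor of the cytosol. After it binds an aromatic ligand such as dioxin or a tryptophan metabolite, it enters the nucleus, pairs with ARNT and binds xenobiotic response elements near its target genes. In liver the best known targets are cytochromes P450 of the CYP1 family, which oxidize aromatic compounds, followed by enzymes that reduce or conjugate the products. NQO1, UGDH and ALDH3A1 belong to this second layer, and TIPARP, an ADP-ribosyltransferase, represses AhR in turn. Several of these genes, *Nqo1* above all, are also targets of NRF2, the transcription factor of the oxidative stress response.

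Total counts ranged from 46306518 to 74336255 per liver, and 3 counts corresponded to 0.0425 to 0.0676 CPM (counts scaled to library size). Under the control diet, *Ahr* itself measured 20.1, 16.6 and 18.3 CPM in the WT livers and 65.5, 41.3 and 63.3 CPM in those labelled *Ahr* HKO. It was thus higher in the livers labelled as knockouts (log2 FC 1.63, SE 0.188, adjusted *P* = 0.00164). Under ethanol it measured 30.5, 20.8 and 23.4 CPM in WT and 41.8, 32.1 and 24.7 CPM in *Ahr* HKO, and these groups overlapped (log2 FC 0.40, adjusted *P* = 0.316). Reads were counted over the whole gene and do not separate the floxed exon, so *Ahr* counts neither support nor contradict the genotype labels, and genotype is given as labelled. The study's methods describe a PCR of excised and unexcised alleles, which was not analysed here. Markers of hepatocytes, Kupffer cells, stellate cells, endothelial cells and bile duct cells were all above 3 counts in each group.

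The promoters of these genes were compared for the pentamer GCGTG, the core of the xenobiotic response element, since it is the sequence AhR is known to bind. RefSeq windows of 300 bases, from 250 before to 50 after the transcription start (GRCm38.p6, the mm10 assembly of the files), were matched for *Cyp1a1*, *Cyp1a2*, *Cyp1b1*, *Nqo1*, *Tiparp*, *Ugdh* and *Htatip2*. The core was present on either strand in 5 of these 7 genes, against 35.2% of all 27025 genes with a window. It lay 54 bases before the start of *Cyp1a1*, 76 before *Cyp1b1*, 170 before *Tiparp*, 94, 172 and 180 before *Ugdh*, and 108 and 119 before *Htatip2*. *Htatip2* has a pair of start sites in RefSeq, and only the window of the first held the core. The letters did not occur in the windows of *Nqo1* and *Cyp1a2*. The 5 stretches that hold the core are listed here, 5′ to 3′ on the strand of the gene, with 20 bases on either side. Capitals mark the core, which reads CACGC where it lies on the opposite strand.

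*Cyp1a1*, chr9:57697539-57697583, plus strand: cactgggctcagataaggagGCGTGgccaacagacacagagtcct
*Cyp1b1*, chr17:79715113-79715157, minus strand: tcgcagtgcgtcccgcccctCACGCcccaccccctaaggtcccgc
*Tiparp*, chr3:65528257-65528301, plus strand: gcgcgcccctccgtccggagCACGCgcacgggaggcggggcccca
*Ugdh*, chr5:65435912-65436042, minus strand: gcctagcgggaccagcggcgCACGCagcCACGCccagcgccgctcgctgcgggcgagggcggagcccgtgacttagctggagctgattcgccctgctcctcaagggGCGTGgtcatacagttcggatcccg
*Htatip2*, chr7:49758967-49759022, plus strand: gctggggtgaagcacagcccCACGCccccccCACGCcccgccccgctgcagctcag

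A second motif, TGACNNNGC, the core of the antioxidant response element that NRF2 binds, was found on either strand in *Ugdh* and *Htatip2* and in 14.0% of all genes with a window. In *Ugdh* it lay 132 and 94 bases before the start, and the latter match overlapped a GCGTG. *Htatip2* held separate matches in the windows of its pair of start sites. In the window with GCGTG the match lay on the opposite strand, within the transcribed part. In the other window a match on the strand of the gene lay 49 bases before the start. These matches describe the letters only. *Cyp1a1* (Entrez 13076; chr9:57687928-57703824) and *Cyp1a2* (Entrez 13077; chr9:57676937-57683655) are neighbours, with 4272 bases between their RefSeq records. The *Cyp1a1* stretch listed above lies inside the *Cyp1a1* record. The gap is thus not the distance from the *Cyp1a1* start site used here to *Cyp1a2*. The other members lie on separate chromosomes.

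Levels between genes were compared as the deposited FPKM, which is scaled to gene length. In WT on the control diet the order of mean FPKM was *Cyp1a2* (245 ± 58.4, SD, n = 3), *Ugdh* (35.2 ± 3.86), *Htatip2* (12.4 ± 2.00), *Nqo1* (1.60 ± 0.503), *Tiparp* (1.09 ± 0.156), *Cyp1b1* (0.120 ± 0.0282) and *Cyp1a1* (0.0874 ± 0.0268). The ranges of the 3 livers overlapped for *Nqo1* and *Tiparp* and for *Cyp1b1* and *Cyp1a1*, and were apart for the other neighbours. *Cyp1a2*, the constitutive hepatic member of the family, was thus the most abundant, whereas *Cyp1a1* was the lowest of the 7. On the ethanol diet *Cyp1a1* stood above *Cyp1b1* in both genotypes, and no neighbours in the order overlapped. In *Ahr* HKO on the control diet *Cyp1a2* (76.7 ± 41.7 FPKM) and *Ugdh* (68.7 ± 8.98 FPKM) overlapped, as did *Tiparp* and *Nqo1*, and *Cyp1a1* and *Cyp1b1*. *Aldh3a1* had 2 counts in WT on ethanol replicate 2 and 0 in the other 11 livers, all under the floor of 3 counts, so its expression was not detectable at this depth in any group.

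**Figure D1:**
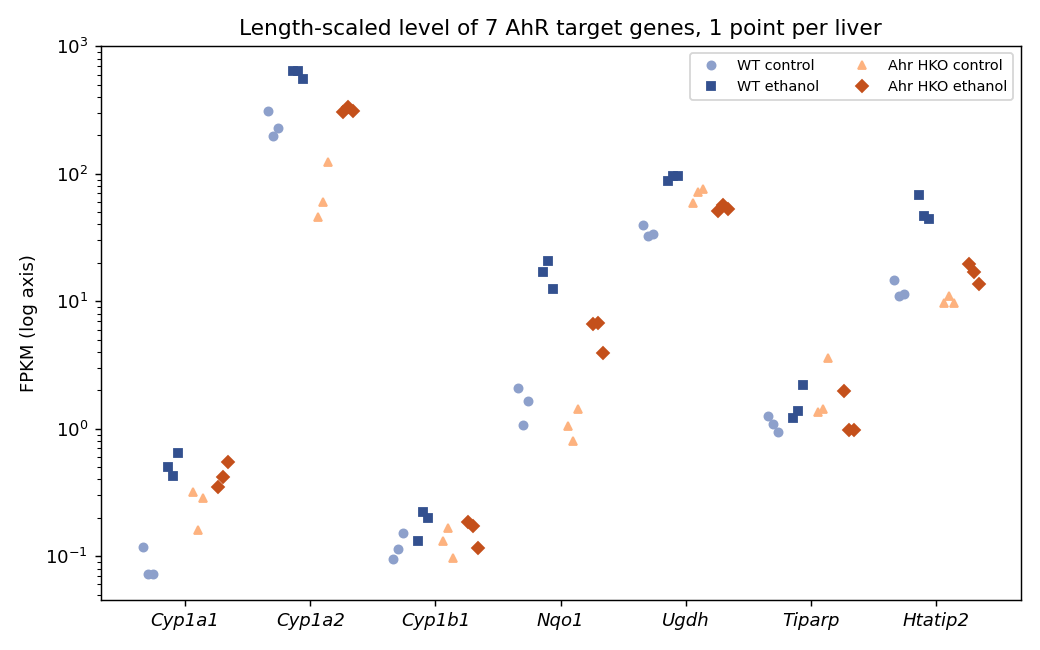
Deposited FPKM (log axis) of the 7 detected AhR target genes, with 1 point per liver and 3 livers in each group. *Cyp1a2* lies at the top in every group except *Ahr* HKO on the control diet, where its 3 livers (45.8 to 124 FPKM) overlap those of *Ugdh* (58.5 to 75.3 FPKM).

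To assess what ethanol did to these genes when AhR was intact, WT livers on the ethanol diet were compared with WT livers on the control diet. Ethanol upregulated 5 of the 7 tested members, *Nqo1*, *Cyp1a1*, *Htatip2*, *Ugdh* and *Cyp1a2*, by 2.24- to 9.36-fold, whereas *Cyp1b1* and *Tiparp* did not pass the test. Among all tested genes 4.84% were higher and 4.63% lower at the same threshold, an adjusted *P* value under 0.05. The median log2 FC was 1.25 over the 7 members and 0.03 over all tested genes.

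Among the CYP1 monooxygenases, *Cyp1a1*, the classical readout of AhR activation, had 0.349, 0.214 and 0.204 CPM on the control diet and 1.36, 1.02 and 1.66 CPM on ethanol. All ethanol livers exceeded all controls, but the counts behind these values were only 10 to 16 against 64 to 104 reads. The log2 FC was 2.40 (SE 0.389, adjusted *P* = 0.0151). *Cyp1a2*, which metabolizes caffeine and aromatic amines, had 617, 398 and 456 CPM on the control diet and 1212, 1061 and 992 CPM on ethanol. Its groups were also apart (log2 FC 1.16, SE 0.184, adjusted *P* = 0.0137). *Cyp1b1*, the family member expressed mainly outside hepatocytes, had 0.524, 0.643 and 0.818 CPM on the control diet and 0.680, 1.02 and 0.971 CPM on ethanol. These groups overlapped (log2 FC 0.44, 95% interval -0.38 to 1.26, adjusted *P* = 0.467). Leaving out WT control replicate 2 or 3 ended the calls of *Cyp1a1* (adjusted *P* = 0.0642 and 0.0609) and *Cyp1a2* (adjusted *P* = 0.0511 and 0.0607), and a replicate block ended that of *Cyp1a1* (adjusted *P* = 0.0512).

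Among the reducing and conjugating enzymes, *Nqo1* (Entrez 18104; chr8:107388225-107403205), a quinone reductase, showed the largest change of the members tested. It had 3.41, 1.79 and 2.72 CPM on the control diet and 26.6, 28.2 and 18.2 CPM on ethanol. The lowest ethanol liver was thus far above the highest control, and the log2 FC was 3.23 (SE 0.277, adjusted *P* = 0.00203). *Ugdh* (Entrez 22235; chr5:65413207-65435842), which makes UDP-glucuronic acid for glucuronidation, had 102, 85.0 and 86.1 CPM on the control diet and 216, 205 and 222 CPM on ethanol. The groups were apart with little spread, and the log2 FC was 1.25 (SE 0.105, adjusted *P* = 0.00184). Both calls held when any 1 of the 6 livers was left out.

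The members with other roles were divided. *Htatip2* (Entrez 53415; chr7:49759045-49774000), an oxidoreductase also known as TIP30, had 21.5, 16.3 and 16.5 CPM on the control diet and 96.6, 57.1 and 58.3 CPM on ethanol. Replicate 1 was the highest liver of the ethanol group, and every ethanol liver exceeded the controls (log2 FC 1.98, SE 0.228, adjusted *P* = 0.00508). *Tiparp* (Entrez 99929; chr3:65528447-65555518) had 5.48, 4.84 and 4.09 CPM on the control diet and 5.08, 5.06 and 8.76 CPM on ethanol. Only replicate 3 of the ethanol group lay above all control livers, and the change was not significant (log2 FC 0.40, 95% interval -0.18 to 0.99, adjusted *P* = 0.350; 0.09 without that liver). Of the 5 genes with the GCGTG core shown above, 3 (*Cyp1a1*, *Ugdh* and *Htatip2*) rose with ethanol in WT, and *Nqo1* and *Cyp1a2*, without it in the window, rose as well.

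**Figure D2:**
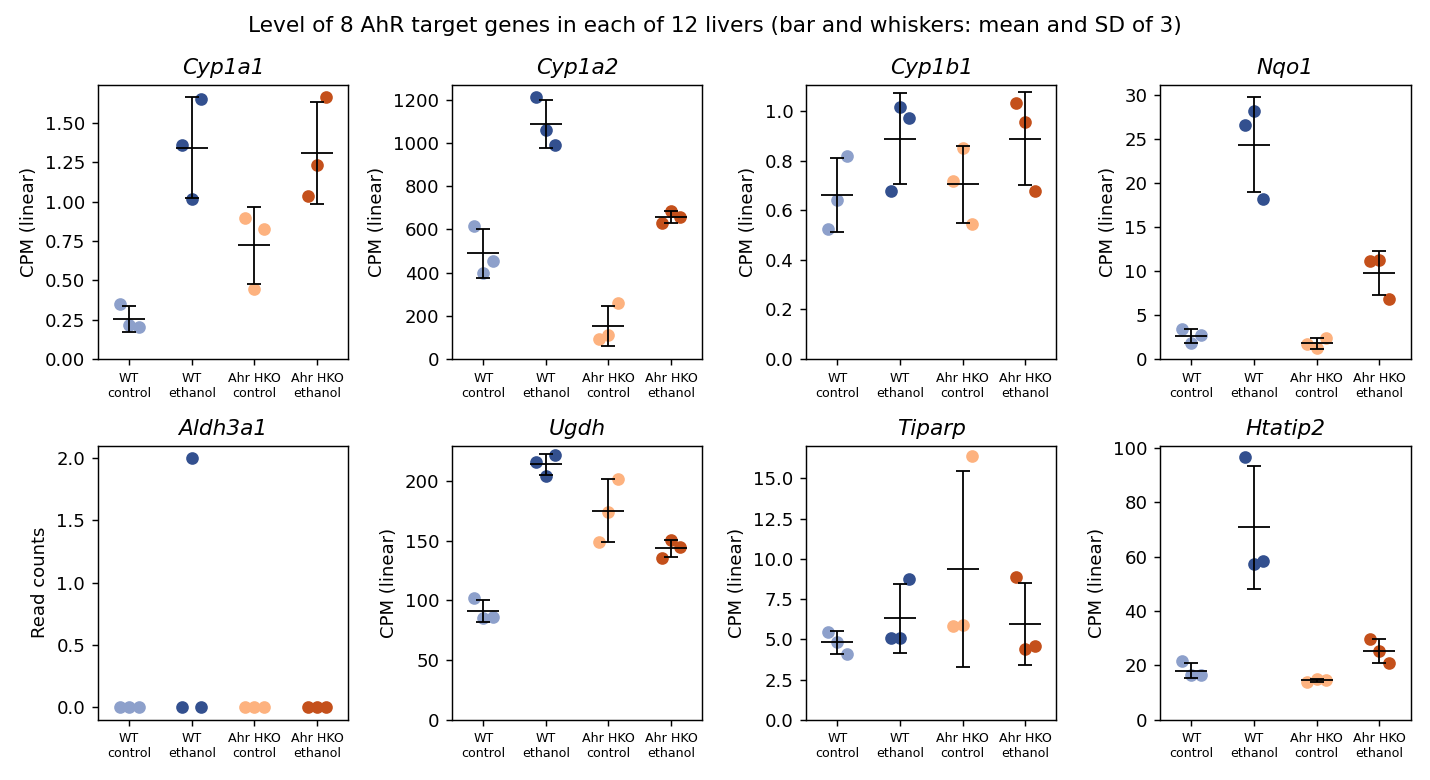
CPM of each AhR target gene in each liver on a linear axis that starts at 0 (read counts for *Aldh3a1*), with horizontal bars for group means and whiskers for the SD of 3 livers. In WT, all ethanol livers lie above all control livers for *Cyp1a1*, *Cyp1a2*, *Nqo1*, *Ugdh* and *Htatip2*, and the groups overlap for *Cyp1b1* and *Tiparp*.

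The livers labelled *Ahr* HKO were next compared with WT on the control diet, where the members did not move in a common direction. *Cyp1a1* and *Ugdh* were higher and *Cyp1a2* was lower in *Ahr* HKO, and the other 4 tested members were not called. In this comparison 15.4% of all tested genes were higher and 14.2% lower. The median log2 FC was 0.10 over the members and 0.00 over all tested genes (-0.001).

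*Cyp1a2* had 90.7, 112 and 258 CPM in *Ahr* HKO on the control diet, each below the lowest WT liver at 398 CPM. Replicate 3 stood apart from the other two. The log2 FC was -1.67 (SE 0.401, adjusted *P* = 0.0197), and the call was lost without WT control replicate 1 (adjusted *P* = 0.0612) or *Ahr* HKO control replicate 2 (adjusted *P* = 0.0601). *Cyp1a1* had 0.898, 0.444 and 0.827 CPM, each above the highest WT liver at 0.349 CPM. Its log2 FC was 1.50 (SE 0.461, adjusted *P* = 0.0453), and leaving out any of 5 of the 6 livers, all but *Ahr* HKO control replicate 2, ended the call (adjusted *P* = 0.0639 to 0.136). A replicate block ended it too (adjusted *P* = 0.0893). The neighbouring genes *Cyp1a1* and *Cyp1a2* thus had opposite signs in this comparison.

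*Ugdh* had 149, 174 and 202 CPM in *Ahr* HKO on the control diet, all above the WT livers at 85.0 to 102 CPM. The log2 FC was 0.95 (SE 0.144, adjusted *P* = 0.00397), and the call held without any 1 liver. *Tiparp* had 5.85, 5.87 and 16.4 CPM, of which replicate 3 was by far the highest. Its groups did not overlap, but the log2 FC of 0.97 had an SE of 0.414 and an adjusted *P* value of 0.119, and it was 0.29 without replicate 3. *Htatip2* had 14.0, 14.9 and 14.6 CPM, just below the lowest WT liver at 16.3 CPM (log2 FC -0.32, SE 0.125, adjusted *P* = 0.0972). *Nqo1* had 1.70, 1.25 and 2.44 CPM, which overlapped WT (log2 FC -0.55, 95% interval -1.33 to 0.23, adjusted *P* = 0.255). *Cyp1b1* had 0.719, 0.853 and 0.544 CPM and overlapped WT as well (log2 FC 0.10, 95% interval -0.72 to 0.92, adjusted *P* = 0.859).

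To see whether the targets responded to ethanol in mice labelled as lacking hepatocyte AhR, the diets were then compared within *Ahr* HKO. *Nqo1*, *Cyp1a2* and *Htatip2* were upregulated by 1.75- to 5.47-fold, and the other 4 tested members were not called. Of all tested genes, 14.9% were higher and 15.9% lower. The median log2 FC was 0.80 over the members and -0.02 over all tested genes. These 3 calls held without any 1 of the 6 livers.

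*Nqo1* had 11.2, 11.3 and 6.88 CPM in *Ahr* HKO on ethanol, against 1.25 to 2.44 CPM on the control diet. The groups were well apart, and the log2 FC was 2.45 (SE 0.309, adjusted *P* = 0.00294). *Cyp1a2* had 629, 684 and 658 CPM on ethanol, more uniform than the 90.7 to 258 CPM of the control livers. Its log2 FC was 2.09 (SE 0.388, adjusted *P* = 0.00884). *Htatip2* had 29.6, 25.2 and 21.0 CPM, each above the highest control liver at 14.9 CPM (log2 FC 0.80, SE 0.136, adjusted *P* = 0.00667).

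*Ugdh* had 136, 150 and 145 CPM in *Ahr* HKO on ethanol, overlapping its control livers at 149 to 202 CPM (log2 FC -0.29, SE 0.138, adjusted *P* = 0.152). *Cyp1a1* had 1.03, 1.23 and 1.67 CPM, each above the control livers at 0.444 to 0.898 CPM. With 73 to 80 reads against 26 to 55, its log2 FC of 0.85 (SE 0.364) did not pass the test (adjusted *P* = 0.115). *Tiparp* had 8.87, 4.40 and 4.55 CPM and overlapped its controls (log2 FC -0.65, SE 0.477, adjusted *P* = 0.328). The value lay between -1.06 and 0.04 when a liver was left out, the highest being that without *Ahr* HKO control replicate 3. *Cyp1b1* had 1.03, 0.957 and 0.676 CPM, which overlapped as well (log2 FC 0.34, adjusted *P* = 0.450).

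On the ethanol diet, *Ahr* HKO livers had less *Htatip2*, *Cyp1a2* and *Ugdh* than WT livers. These were 3 of the 7 tested members, when 0.392% of all tested genes were lower and 0.712% were higher. The median log2 FC was -0.57 over the members and -0.01 over all tested genes. For *Htatip2* the 3 *Ahr* HKO livers at 21.0 to 29.6 CPM lay below the WT livers at 57.1 to 96.6 CPM (log2 FC -1.48, SE 0.228, adjusted *P* = 0.0422). For *Cyp1a2* the *Ahr* HKO livers reached at most 684 CPM and the WT livers at least 992 CPM (log2 FC -0.73, SE 0.116, adjusted *P* = 0.0433). For *Ugdh* the corresponding levels were at most 150 and at least 205 CPM (log2 FC -0.57, SE 0.0928, adjusted *P* = 0.0438).

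*Nqo1* showed the same separation without passing the threshold, with 6.88 to 11.3 CPM in *Ahr* HKO and 18.2 to 28.2 CPM in WT (log2 FC -1.31, SE 0.245, adjusted *P* = 0.0633). It was called with a replicate block (adjusted *P* = 0.0140), under which *Cyp1a2* (adjusted *P* = 0.0578) and *Ugdh* (adjusted *P* = 0.0600) were not. The 3 calls were close to the threshold. *Ugdh* lost its call without any 1 of the 6 livers (adjusted *P* = 0.0682 to 0.195), and *Cyp1a2* and *Htatip2* without any of 5 of them, all but WT ethanol replicate 3. *Cyp1a1* (log2 FC -0.04, 95% interval -0.75 to 0.68), *Cyp1b1* (log2 FC 0.00, 95% interval -0.76 to 0.76) and *Tiparp* (log2 FC -0.08, 95% interval -0.88 to 0.71) overlapped between genotypes on ethanol (adjusted *P* = 0.956, 0.999 and 0.908).

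**Figure D3:**
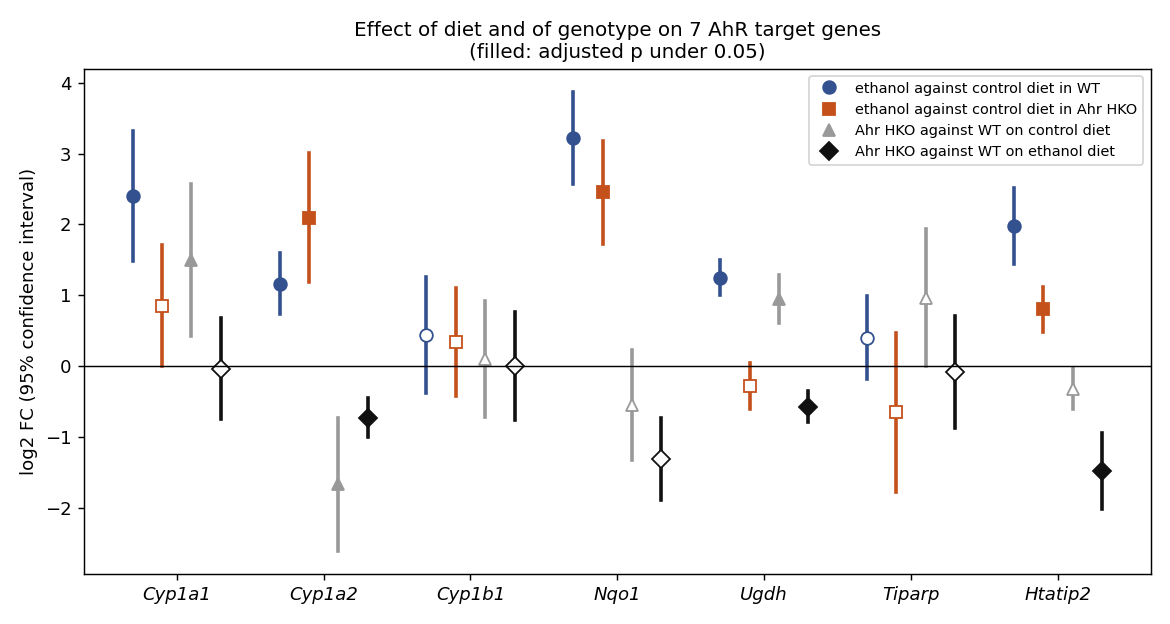
Log2 FC of the 7 tested members for both diet comparisons and both genotype comparisons, with 95% confidence intervals and filled symbols where the adjusted *P* value was under 0.05. *Ugdh* had a positive ethanol effect in WT (1.25) and not in *Ahr* HKO (-0.29), and *Cyp1a2* was lower in *Ahr* HKO on both diets (-1.67 and -0.73).

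Finally, the ethanol effect in *Ahr* HKO minus that in WT was tested for each member as the interaction of genotype and diet. This difference was called for *Ugdh* and *Htatip2*, 2 of the 7 tested members, and it was called in either direction for 22.3% of all tested genes. Its median was -1.04 over the members and -0.03 over all tested genes. For *Ugdh* the difference was -1.52 (SE 0.169, adjusted *P* = 0.000353): the gene went from a mean of 91.0 ± 9.50 to 214 ± 8.67 CPM in WT and from 175 ± 26.4 to 144 ± 7.34 CPM in *Ahr* HKO (SD, n = 3). For *Htatip2* it was -1.16 (SE 0.285, adjusted *P* = 0.0153), with means of 18.1 ± 2.91 and 70.7 ± 22.5 CPM in WT and 14.5 ± 0.423 and 25.3 ± 4.30 CPM in *Ahr* HKO. The difference in *Ugdh* thus involved its higher control level in *Ahr* HKO, whereas *Htatip2* started from levels that did not pass the test between genotypes.

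The remaining members were not called in the interaction. For *Cyp1a1* the difference of -1.54 (SE 0.517) was as large as for *Ugdh* but less precise (adjusted *P* = 0.0531), and it was called without WT control replicate 1 (adjusted *P* = 0.0483) or *Ahr* HKO control replicate 2 (adjusted *P* = 0.0280). *Cyp1a2* had a difference of opposite sign, 0.95 (SE 0.452, adjusted *P* = 0.154), which rose to 1.55 without *Ahr* HKO control replicate 3 (adjusted *P* = 0.00328). *Nqo1* had a difference of -0.76 (95% interval -1.69 to 0.18, adjusted *P* = 0.222). *Tiparp* had a difference of -1.04 (SE 0.592, adjusted *P* = 0.227), which was -0.37 without *Ahr* HKO control replicate 3. *Cyp1b1* had a difference of -0.09 (SE 0.444, adjusted *P* = 0.908).

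The other genes of the pathway were described from 4 lists. Their counts stand beside shares of all tested genes of 4.84% higher and 4.63% lower with ethanol in WT, 14.9% and 15.9% with ethanol in *Ahr* HKO, 15.4% and 14.2% between genotypes on the control diet, 0.712% and 0.392% on ethanol, and 22.3% in the interaction. Of 12 AhR partners and regulators, 10 were tested (*Ahrr*, the AhR repressor, and *Arnt2* had too few reads), and in WT ethanol lowered *Ncoa2*, a coactivator (log2 FC -0.41, SE 0.0898, adjusted *P* = 0.0342), and called no other, with a list median of 0.24. In *Ahr* HKO on the control diet 4 of the 10 were higher than in WT, namely *Hsp90aa1* (1.93) and *Ptges3* (0.40), the chaperones of cytosolic AhR, *Arnt*, its nuclear partner (0.56), and *Ahr*. With ethanol in *Ahr* HKO, 2 of the 10 rose and 4 fell, among them *Ahr* (-0.79), *Arnt* (-0.61) and the nuclear exporter *Xpo1* (-0.72), while *Hsp90ab1* rose (0.75). The difference between genotypes in the ethanol effect was called for *Ahr* (-1.23, adjusted *P* = 0.0176) and *Arnt* (-0.67, adjusted *P* = 0.0153). Between genotypes on ethanol none of the 10 was called by edgeR. An unadjusted *P* value under 0.05 was found for 2 of the 10 and for 2952 of all 14038 tested genes.

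Of 18 further AhR targets, 17 were tested, and in WT ethanol raised 8 and lowered 1 (median log2 FC 0.66). The glutathione transferases *Gsta1* (5.71, SE 0.728) and *Gsta2* (4.90, SE 0.621) and the growth factor binding protein gene *Igfbp1* (3.64, SE 0.569) showed large changes. *Gsta1* and *Gsta2* are close paralogs whose reads could be divided between them. With ethanol in *Ahr* HKO, 6 of the 17 rose and 2 fell (median 0.48), and the rises included *Gsta2* (2.65), *Gsta1* (1.72) and *Ugt1a6b* (1.15), and *Socs2*, a suppressor of cytokine signaling, fell (-2.89). The difference was called in 8 of the 17, with 6 negative, and *Gsta1* had -3.97 (adjusted *P* = 0.00649). Between genotypes on the control diet 2 were higher and 2 lower (median 0.30), against 15.4% and 14.2% of all tested genes. On ethanol edgeR called none (median -0.46). Of the 17, 10 had an unadjusted *P* value under 0.05, beside 2952 of all 14038 tested genes.

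*Nqo1* is shared between AhR and NRF2, and 17 further NRF2 targets, mostly antioxidant genes, were all tested. In WT ethanol raised 13 of the 17 and the other 4 were not called (median log2 FC 1.54), including the glutathione transferases *Gstm3* (4.60, SE 0.246, adjusted *P* = 0.000373) and *Gstm1* (3.09, SE 0.212) and sulfiredoxin, *Srxn1* (2.20, SE 0.195). *Slc7a11*, the cystine transporter, had no read in WT on the control diet and 0.239 to 0.566 CPM on ethanol. Its ethanol mean of 0.422 CPM was 7.02-fold the mean floor of 3 counts in the control libraries, 0.0601 CPM. The list median stayed at 1.54 with the gene at that bound. In *Ahr* HKO ethanol raised 8 and lowered 2 of the 17 (median 0.36). *Slc7a11* had no read in *Ahr* HKO on either diet. Its fitted log2 FC of 0 there measures no change but enters that median. *Gstm3* rose in *Ahr* HKO too (3.30), whereas *Srxn1* fell (-2.18) from a control level that was already above WT by a log2 FC of 3.33. On ethanol 3 NRF2 targets were lower in *Ahr* HKO than in WT, *Gstm3* (-1.67), *Ephx1*, the microsomal epoxide hydrolase (-0.90), and *Pir* (-0.70), with a list median of -0.70. On the control diet 5 of the 17 were higher and 2 lower (median -0.01). The genotype difference in the ethanol effect was called in 7 of the 17, with 6 negative.

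Most of the 11 genes of glucuronidation, the pathway that uses the UDP-glucuronic acid made by UGDH, rose with ethanol in each genotype. In WT 7 rose and 4 were not called (median log2 FC 0.94), and the rises included *Ugt1a9* (3.69), *Ugp2*, which makes the substrate of UGDH (1.63), *Ugt2b35* (1.54) and *Ugt1a1* (1.19). In *Ahr* HKO 7 rose, 3 were not called and *Slc35d1*, a transporter of UDP-sugars, fell (-0.72), with a median of 1.04, and the rises included *Ugt1a9* (2.97), *Ugt2b35* (2.34), *Ugt2b5* (1.3) and *Ugp2* (1.27), while *Ugdh* itself was not called. *Ugt1a* transcripts share their last exons and *Ugt2b* genes are similar in sequence, so that reads may have been divided among them. On the control diet 1 was higher and 5 were lower in *Ahr* HKO than in WT (median -0.49), and on ethanol *Ugt2b1* was higher (0.79) and *Ugp2* lower (-1.11). The interaction was called for *Ugt2b1*, *Slc35d1* and *Ugt2b35*.

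**Figure D4:**
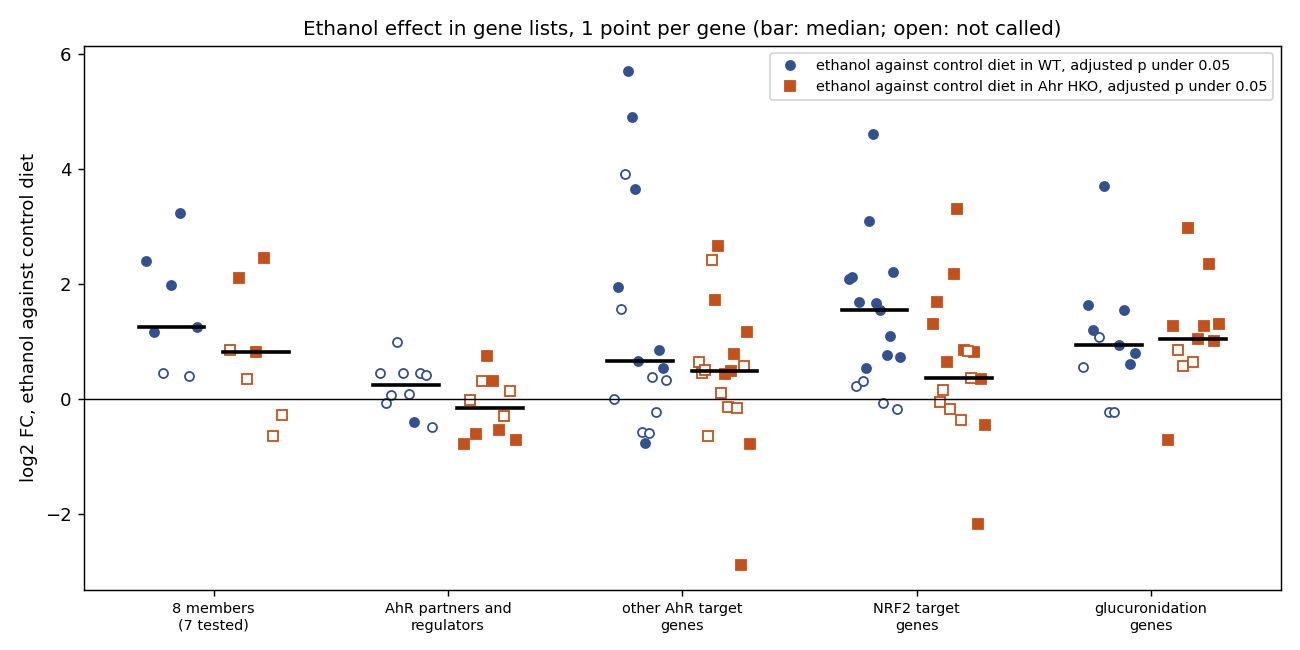
Log2 FC of ethanol against control diet for each tested gene of the members and of the 4 pathway lists, in WT (circles) and *Ahr* HKO (squares), with black bars for list medians and filled symbols for an adjusted *P* value under 0.05. The median of NRF2 targets was 1.54 in WT and 0.36 in *Ahr* HKO, and that of glucuronidation genes was 0.94 and 1.04. Genes with at most 3 counts over the livers of either diet group are not drawn, since their fitted values measure no fold, but they count in the medians.

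Cell type markers moved in some of these comparisons. In bulk tissue, fewer cells of a type and less RNA per cell cannot be told apart. With ethanol in *Ahr* HKO all 6 Kupffer cell markers fell (median log2 FC -1.52), and their summed level was 155 to 462 CPM on the control diet and 103 to 126 CPM on ethanol. The 3 members called in that comparison rose. With ethanol in WT none of the 6 Kupffer markers was called by edgeR, none had an unadjusted *P* value under 0.05, and their sum was 184 to 221 against 161 to 372 CPM. Between genotypes on ethanol, where *Htatip2*, *Cyp1a2* and *Ugdh* were lower in *Ahr* HKO, all 6 Kupffer markers had a negative log2 FC (median -1.16). None was called by edgeR, and 5 had an unadjusted *P* value under 0.05, beside 2952 of all 14038 tested genes. Of the 7 hepatocyte markers 6 had a positive log2 FC there (median 0.53), of which *Tat* was called (1.63). All 7 stellate cell markers (median -0.37) and all 5 endothelial markers (median -0.38) were also negative between genotypes on ethanol, and none was called. Of 5 bile duct markers 1 had a positive log2 FC, and of 7 pericentral hepatocyte markers 4. Of 7 pericentral hepatocyte markers, which share the zone where *Cyp1a2* is highest, 2 fell with ethanol in WT (*Cyp2e1*, -0.79, and *Rgn*, -0.65), 3 had a positive log2 FC without being called, and the list median was -0.01. Their sum, most of it *Cyp2e1* (means of 7345 and 4198 CPM), was 10010 to 10790 CPM on the control diet and 6881 to 7394 CPM on ethanol while *Cyp1a2* rose. The pericentral sum was 6555 to 10392 CPM in *Ahr* HKO on the control diet and 9392 to 11019 CPM on ethanol. Of 7 hepatocyte markers, 1 was called higher and 1 lower with ethanol in WT, and 1 higher with ethanol in *Ahr* HKO. Between genotypes 2 were called higher on the control diet and 1 on ethanol, and 2 had a positive called interaction. The shares of all tested genes given above for each comparison stand beside these counts. Of 5 endothelial markers, *Stab2* (-0.75) and *Pecam1* (-0.74) fell with ethanol in *Ahr* HKO, and the sum was 208 to 231 CPM on the control diet and 146 to 164 CPM on ethanol. Of 5 bile duct markers, only *Epcam* was called higher in *Ahr* HKO than in WT on the control diet (2.28). The others were not called there (*Spp1* 1.63, *Krt7* 0.26, *Krt19* -0.03 and *Sox9* -0.35). *Epcam* fell with ethanol in *Ahr* HKO (-1.96). The summed bile duct markers were 40.3 to 132 CPM in WT and 44.5 to 476 CPM in *Ahr* HKO on the control diet. Most of these sums was *Spp1* (means of 71.4 and 221 CPM). Stellate cell markers, the cells where *Cyp1b1* is known to be expressed, had sums of 219 to 300 CPM in WT on the control diet and 313 to 359 CPM on ethanol, and 2 of 7 rose. The part of these shifts in the members' changes was not tested.

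The genes whose levels followed each member most closely over the 12 livers were ranked by Pearson's r of log2 CPM, as a description in which the livers share 4 groups. *Nqo1* was followed by *Gstm3* (r = 0.988), *Gstm1* (r = 0.978) and *Creg1* (r = 0.977). *Htatip2* was followed by *Slc48a1*, *Anxa4* and *Dnajc14* (r = 0.959 to 0.967), and *Cyp1a2* by *Cyp46a1*, *Hyi* and *Akr1c14* (r = 0.971 to 0.975). Among the genes nearest to *Ugdh* were *Naa50* (r = 0.957) and the glutathione reductase gene *Gsr* (r = 0.938). *Cyp1a1* was followed by *Purb*, *Lrrc58* and *Ppp1r15b* (r = 0.947 to 0.954). *Tiparp* (*Ssfa2*, *Cyp2c40* and *Glud1*, r = 0.861 to 0.893) and *Cyp1b1* (*Tax1bp3*, *Serf1* and *Bin1*, r = 0.824 to 0.871) had less similar genes. No member appeared among the 3 genes nearest to another.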

How the data were processed

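RNA-seq was performed by the authors on poly-A selected, stranded libraries of 12 livers. Per the labels, the submitters' processing notes name FastQC 0.11.7, Trimmomatic 0.38, HISAT2 2.1.0, Bowtie2 2.3.4.1 and StringTie 1.3.4d, with assembly mm10. The authors deposited 1 table of read counts, FPKM and TPM per gene. Deposited counts were tested as they stand, deposited FPKM served for levels between genes, and deposited TPM were only tabulated. The TPM columns sum to 924962 to 987569.

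Each pair of groups was fitted with edgeR 4.0.16 (quasi-likelihood test, TMM within the comparison, filterByExpr over the 4 groups, two-sided, Benjamini-Hochberg adjustment over 14038 genes, threshold 0.05), and the interaction over 12 livers. Genes were fitted with R 4.3.3; CPM used TMM over 12 libraries. SEs were derived from the F statistic, and intervals are at 95%. Alternatives used DESeq2 1.42.0 and limma 3.58.1. The edgeR fit was tested on simulated data. Counting limits of 3 reads cover counting error only.

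The members and gene lists were chosen with earlier results of these data known. Named were all members and *Ahr*, at most 4 called genes per list and comparison with the largest absolute log2 FC, and the 3 nearest genes by r among those with a mean of at least 1 CPM. *Slc35d1* was named besides, as the gene of its list that fell with ethanol in *Ahr* HKO, and so were some cell type markers. Replicate numbers were not treated as pairs, and same-numbered livers of different groups had r = -0.143 to 0.293 over genes. The highest values were 0.293 and 0.197, for replicates 1 and 2 between genotypes on ethanol. In that comparison a replicate block called 150 genes higher and 95 lower, against 100 and 55 without it. Whether those livers were paired cannot be told from these values. No 2 of the 66 pairs of libraries were identical. Some genes that this rule names are not reported here. Promoters and positions came from RefSeq (GRCm38.p6). Figures were drawn with matplotlib 3.10.9.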

Additional observations from a re-analysis of the deposited data

Results flagged for a closer look

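The effect of ethanol differed between genotypes, by the edgeR interaction test, for 2 of the 7 tested members. It was called in either direction for 22.3% of all tested genes. For *Ugdh* the effect in *Ahr* HKO minus that in WT was -1.52 on the log2 scale (adjusted *P* = 0.000353), and the call held whichever of the 12 livers was left out (-1.62 to -1.40). For *Htatip2* it was -1.16 (adjusted *P* = 0.0153), and the call also held without any 1 liver (-1.30 to -0.87). The genotype itself was not checked by *Ahr* counts, as given above.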

How the results depend on the processing

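The number of members called stayed within 1.5 times of 5, 3, 3, 3 and 2 (ethanol in WT, genotype on the control diet, genotype on ethanol, ethanol in *Ahr* HKO, interaction) under DESeq2, upper-quartile factors, no filter, a threshold of at least 10 counts per library throughout, a single fit of all 12 libraries (pairs of groups), limma on log2(FPKM + 1) after quantile normalization, and limma on log2(FPKM + 0.1). Labels share replicate numbers, which were not treated as pairs. With a replicate block the counts were 4, 2, 2, 3 and 2. Leaving out 1 liver gave 3 to 5 called members for ethanol in WT (3 without WT control replicate 2 or 3), 1 to 2 for genotype on the control diet (1 without WT control replicate 1), 0 to 3 for genotype on ethanol (0 without any liver but WT ethanol replicate 3), 3 for ethanol in *Ahr* HKO and 2 to 3 for the interaction.

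The signs that reversed belonged to values that were not called. *Cyp1b1* between genotypes on ethanol was -0.047 with upper-quartile factors, -0.0055 with the threshold of 10 counts and -0.14 on log2(FPKM + 0.1), and its interaction was 0.0069 on quantile-normalized FPKM, where *Cyp1a1* between genotypes on ethanol was 0.053; the cause was not tested. Over the fits without 1 liver, *Cyp1b1* ranged from -0.0585 to 0.273 (genotype, control diet), -0.15 to 0.16 (genotype, ethanol) and -0.269 to 0.068 (interaction). *Cyp1a1* ranged from -0.24 to 0.14 and *Tiparp* from -0.48 to 0.23 between genotypes on ethanol, and *Tiparp* from -1.06 to 0.035 with ethanol in *Ahr* HKO.

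Without quantile normalization, log2(FPKM + 0.1) shifted the median of all genes by 0.13 for ethanol in WT, -0.20 for genotype on ethanol and -0.21 for the interaction, and 76.1%, 21.4% and 23.1% of its calls were higher, whereas the edgeR fits called 679 higher and 650 lower, 100 higher and 55 lower, and 1576 higher and 1561 lower. Among single calls, *Cyp1a1* between genotypes on the control diet was lost with upper-quartile factors, no filter and quantile-normalized FPKM (adjusted *P* = 0.0522, 0.0525 and 0.0791). On ethanol *Cyp1a2* was lost (0.196) and *Nqo1* gained (0.0352) in the single fit of 12 libraries, and *Ugdh* was lost without a filter (0.0506). The interaction of *Cyp1a1* was gained with DESeq2, the threshold of 10 counts and log2(FPKM + 0.1) (0.0246, 0.0363 and 0.0237), and *Ugdh* fell with ethanol in *Ahr* HKO on quantile-normalized FPKM (-0.46, 0.0322). A pseudocount of 1 FPKM lowered the WT ethanol log2 FC of *Cyp1a1* to 0.42, since its FPKM is under 1. DESeq2 called 1 further member between genotypes on each diet, *Tiparp* on the control diet and *Nqo1* on ethanol. Depth limits *Cyp1a1* and *Cyp1b1*, with 10 to 104 reads per liver, and *Aldh3a1*, which was under 3 reads.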
